A study of Homo sapiens with 3 samples.

Results

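The BCL2 family decides whether mitochondria release the factors that start the intrinsic pathway of apoptosis. Pro-survival members (BCL2, BCL2L1, MCL1) hold the effectors BAX and BAK1 in check, effectors that are set free form pores in the outer mitochondrial membrane, and the BH3-only members (BCL2L11, BBC3, PMAIP1, BIK, BID) bind pro-survival proteins or activate effectors directly. In the epidermis the balance of these proteins bears on the survival of basal keratinocytes and on the response to ultraviolet light. The 10 genes named here were taken by gene name from the annotation of the arrays, out of 23595 measured genes, and were read by 28 transcripts.

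RNA came from HaCaT cells, a spontaneously immortalised line of human epidermal keratinocytes, on 3 single-colour NimbleGen expression arrays. The cells of 1 array were given all-trans retinoic acid and nicotinamide (ATRA+NIC). Those of another were given all-trans retinoic acid alone (ATRA, the active metabolite of vitamin A), and those of the last neither (Control). ATRA was at 1 µM in both treated groups, and the time was 36 h for all arrays. Nicotinamide, the amide form of vitamin B3, was given at a dose that the labels used here do not state, and no group received it without ATRA. The treatment protocol names ATRA only, so when nicotinamide was added, and for how long, is not known here. With 1 array per group no difference has an error between cultures, no test between groups is possible, and the values describe these arrays.

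Values are RMA intensities, a measure that the authors corrected for background, normalised across arrays and summarised over 3 probes per transcript. A gene level is the mean of the log2 intensities of its transcripts, printed as an intensity where no log2 is named, and the brightness of different genes is not compared because each has its own probes. A gene is counted as higher or lower when its level differs at least 2-fold and it reached an intensity of 246.5, the median over all genes and arrays, on at least 1 array. Of all genes 12467 reached it, and of the 10 family members 9 did, all but BCL2. Median transcript intensities lay between 297.9 and 302.3 on the 3 arrays and random probes between 18.4 and 19.6. The only scatter that could be measured was that between transcripts of the same gene, whose differences had a pooled SD of 0.31 for ATRA minus Control, 0.30 for ATRA+NIC minus ATRA and 0.24 for ATRA+NIC minus Control on the log2 scale. All 12 keratinocyte markers, such as KRT5, KRT15 and TP63, passed the filter.

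On the ATRA array 3 BH3-only genes, BBC3, PMAIP1 and BIK, were at least 2-fold higher than on the Control array, and no member was 2-fold lower. BCL2 was under the filter and could not be counted, so these were 3 of the 9 members that passed it, BIK through its ATRA value alone, against 3.83% of the genes that passed the filter higher and 2.06% lower. On the ATRA+NIC array 2 of these, BBC3 and PMAIP1, were at least 2-fold lower than on the ATRA array and no member was 2-fold higher, against 3.74% of genes lower and 1.35% higher. Between ATRA+NIC and Control no member differed 2-fold, against 1.03% of genes higher and 0.971% lower. The comparisons share arrays, so a high value on the ATRA array enters both that use it. In RNA of whole cultures, a change in the number of cells that express a gene and a change in RNA per cell cannot be told apart.

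Leukocyte markers moved with BBC3, PMAIP1 and BIK across the arrays. Of 14 such markers 12 were higher with ATRA than in the Control and 12 lower with ATRA+NIC than with ATRA, and their summed level was 3394 with ATRA+NIC, 5976 with ATRA and 3125 in the Control. PTPRC, the pan-leukocyte marker, had 18.5 with ATRA+NIC, 151 with ATRA and 33.7 in the Control, and MS4A1 and CD8A stayed under 50 on all arrays. Whether this had a part in the differences of the BCL2 family was not tested.

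**Figure D1:**
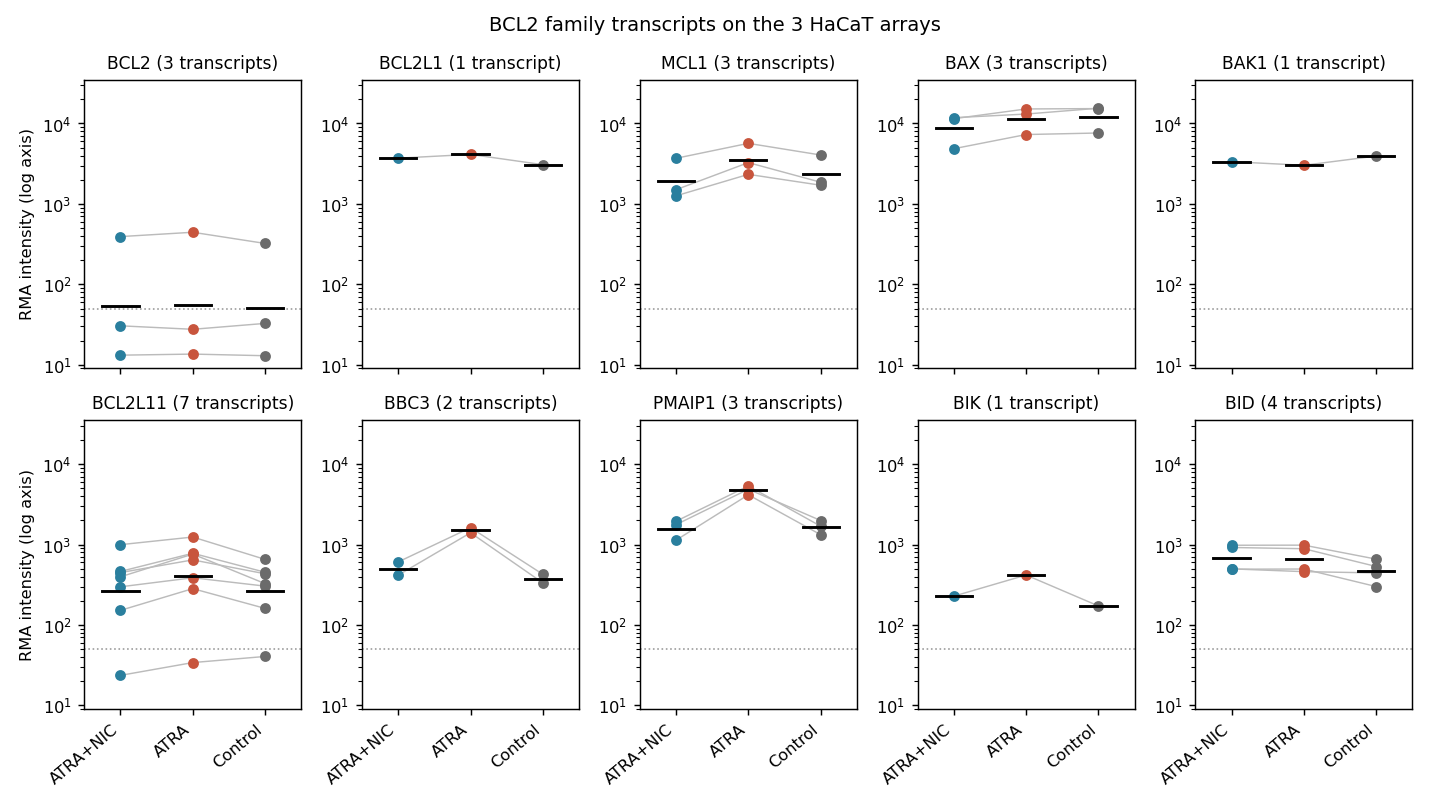
RMA intensity (log axis) of each BCL2 family transcript on the ATRA+NIC, ATRA and Control arrays. Points are transcripts, grey lines join the same transcript, black bars are the gene level and the dotted line marks an intensity of 50. BBC3, PMAIP1 and BIK stand highest on the ATRA array in every transcript, and BCL2 has 1 transcript above 50 and 2 below it.

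BBC3 encodes PUMA, a BH3-only protein that binds all pro-survival family members. Its level was 503 with ATRA+NIC, 1506 with ATRA and 376 in the Control. Its 2 transcripts lie on chromosome 19 in build hg18. The transcript AF354656 (52415920 to 52427863) had intensities of 608 with ATRA+NIC, 1620.4 with ATRA and 426 in the Control. The transcript NM_014417 (52415923 to 52426291) had 416 with ATRA+NIC, 1399.6 with ATRA and 333 in the Control. Each transcript was highest with ATRA and lowest in the Control. BBC3 was 4.00-fold higher with ATRA than in the Control, a log2 difference of 2.00, and 103 of the 12467 genes had a greater one. It was 3.00-fold lower with ATRA+NIC than with ATRA, and 1.34-fold higher with ATRA+NIC than in the Control.

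PMAIP1 encodes NOXA, a BH3-only protein known for binding MCL1 and for its response to stress of the endoplasmic reticulum. Its level was 1571 with ATRA+NIC, 4763 with ATRA and 1644 in the Control. The transcripts lie on chromosome 18 in hg18. The longest of them, NM_021127 (55718216 to 55722517), had intensities of 1764 with ATRA+NIC, 4866 with ATRA and 1986 in the Control. BC013120 had 1944 with ATRA+NIC, 5348 with ATRA and 1689 in the Control. BC032663 had 1131 with ATRA+NIC, 4153 with ATRA and 1323 in the Control. All 3 transcripts were highest on the ATRA array, and 1 of 3 was higher with ATRA+NIC than in the Control. The gene was 2.90-fold higher with ATRA than in the Control, and 210 genes had a greater log2 difference. It was 3.03-fold lower with ATRA+NIC than with ATRA, where 179 genes had a lower difference, and its levels with ATRA+NIC and in the Control differed by −0.07 on the log2 scale.

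BIK, the gene of a BH3-only protein of the endoplasmic reticulum membrane, was read by a single transcript (NM_001197, chromosome 22, 41836700 to 41855662 in hg18). Its intensity was 228 with ATRA+NIC, 417 with ATRA and 172 in the Control. Only the value on the ATRA array reached the filter, so BIK entered the count through the array on which it was high. It was 2.42-fold higher with ATRA than in the Control, 1.83-fold lower with ATRA+NIC than with ATRA and 1.32-fold higher with ATRA+NIC than in the Control. With 100 added to all intensities before log2, the ATRA minus Control difference was 0.93 on the log2 scale, which is under 2-fold.

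BCL2L11 encodes BIM, a BH3-only protein that binds all pro-survival members and exists in several splice forms. Its level was 263 with ATRA+NIC, 404 with ATRA and 261 in the Control, a value with ATRA that was 1.55-fold higher than in the Control. The 7 transcripts, on chromosome 2 in hg18, spread widely. The transcript with the greatest difference, AY423442 (111597793 to 111638278), had 397 with ATRA+NIC, 760.4 with ATRA and 326 in the Control. The brightest, NM_006538, had 995 with ATRA+NIC, 1239 with ATRA and 653 in the Control. On 5 further transcripts the ATRA minus Control log2 differences were 0.82 for AY423443, 0.79 for AY428962, 0.57 for AB071195, 0.35 for AF455755 and −0.25 for NM_207002. The last of these ends at position 111602894, far short of NM_006538, which ends at 111641058. It lay under an intensity of 50 on all arrays, at 23.6 with ATRA+NIC, 34.1 with ATRA and 40.6 in the Control. Thus 6 of 7 transcripts were higher with ATRA than in the Control, 1 of them at least 2-fold, and 0 of 7 were higher with ATRA+NIC than with ATRA. The gene level was 1.54-fold lower with ATRA+NIC than with ATRA.

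BID encodes a BH3-only protein that caspase 8 cleaves, which joins the death receptor pathway to mitochondria. It differed from the members above in that its level stayed near the ATRA value on the ATRA+NIC array, with 686 there, 668 with ATRA and 465 in the Control. Its level was 1.44-fold higher with ATRA than in the Control, 1.48-fold higher with ATRA+NIC than in the Control, and 0.04 higher on the log2 scale with ATRA+NIC than with ATRA. The transcript AY005151 (chromosome 22, 16598264 to 16637178 in hg18) had 919 with ATRA+NIC, 887 with ATRA and 533 in the Control. BC033634 had 979 with ATRA+NIC, 982 with ATRA and 658 in the Control. BC009197 had 493 with ATRA+NIC, 496 with ATRA and 299.9 in the Control. The fourth transcript, NM_001196, showed less, at 498 with ATRA+NIC, 459.8 with ATRA and 443 in the Control. All 4 were higher with ATRA than in the Control, by 0.05 to 0.73 on the log2 scale.

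**Figure D2:**
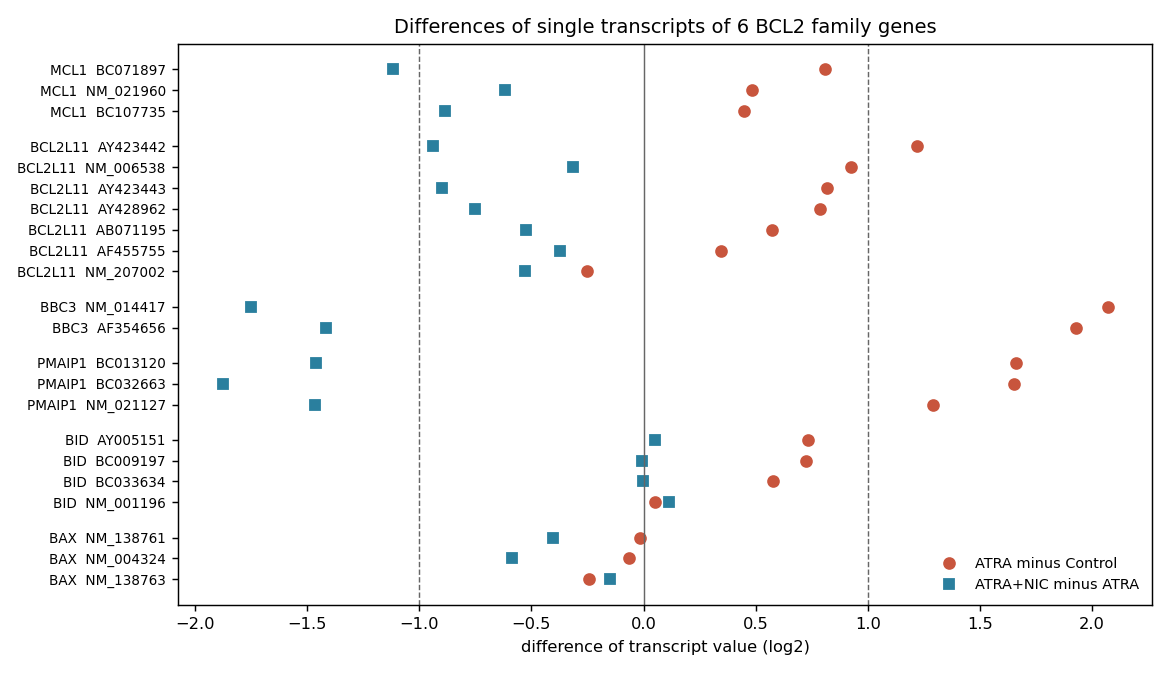
Log2 differences of single transcripts of 6 BCL2 family genes, ATRA minus Control (circles) and ATRA+NIC minus ATRA (squares), with dashed lines at 2-fold. The circles of BBC3 and PMAIP1 lie above 1.0 and their squares below −1.0, the squares of BID lie near 0, and the 3 BAX transcripts lie below 0 in both comparisons.

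MCL1 encodes a short-lived pro-survival protein that PMAIP1 protein binds. Its level was 1912 with ATRA+NIC, 3506 with ATRA and 2345 in the Control. The transcript NM_021960 (chromosome 1, 148813657 to 148818760 in hg18) had 3691 with ATRA+NIC, 5664 with ATRA and 4057.5 in the Control. BC071897 had 1502 with ATRA+NIC, 3263 with ATRA and 1861 in the Control. BC107735 had 1261 with ATRA+NIC, 2332 with ATRA and 1708 in the Control. Each of the 3 transcripts was highest with ATRA and lowest with ATRA+NIC. The gene was higher with ATRA than in the Control by 0.58 on the log2 scale and 1.83-fold lower with ATRA+NIC than with ATRA, where BC071897 alone passed 2-fold at −1.12 on the log2 scale. With ATRA+NIC it was 1.23-fold lower than in the Control.

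BCL2L1, the gene of BCL-XL and its short form BCL-XS, had 1 transcript (NM_001191, chromosome 20, 29715921 to 29774317 in hg18). Its intensity was 3705 with ATRA+NIC, 4129 with ATRA and 3075 in the Control. It was 1.34-fold higher with ATRA and 1.20-fold higher with ATRA+NIC than in the Control, and ATRA+NIC minus ATRA was −0.16 on the log2 scale. With 1 transcript it had no scatter between transcripts to set beside these differences.

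BCL2 itself, the pro-survival gene that named the family, was under the filter because 2 of its 3 transcripts were near the random probes. NM_000633 (chromosome 18, 58941558 to 59137593 in hg18) had 13.2 with ATRA+NIC, 13.6 with ATRA and 13.0 in the Control. BC027258 had 30.5 with ATRA+NIC, 27.6 with ATRA and 32.7 in the Control. The third, NM_000657, which the annotation confines to 59136166 to 59137593 at 1 end of the same locus, had 393 with ATRA+NIC, 445 with ATRA and 323 in the Control. So the transcripts that span the locus gave no signal above an intensity of 50, while the short one did. Its ATRA minus Control difference was 0.46 on the log2 scale. The gene level differed by 0.10 for ATRA minus Control and by −0.03 for ATRA+NIC minus ATRA, and such dim values limit what either can show.

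The effectors ran differently. BAX level was 8698 with ATRA+NIC, 11313 with ATRA and 12183 in the Control. Its transcript NM_138761 (chromosome 19, 54149928 to 54156867 in hg18) had 11472 with ATRA+NIC, 15158 with ATRA and 15324 in the Control. NM_138763 had 11809 with ATRA+NIC, 13104 with ATRA and 15488.5 in the Control. NM_004324 had 4858 with ATRA+NIC, 7290.3 with ATRA and 7619 in the Control. All 3 BAX transcripts were lowest with ATRA+NIC. The gene was 1.40-fold lower with ATRA+NIC than in the Control, where 776 of 12467 genes had a lower difference, and 1.30-fold lower with ATRA+NIC than with ATRA. ATRA and Control differed by −0.11 on the log2 scale. BAK1, read by NM_001188 (chromosome 6, 33648306 to 33655959 in hg18), had 3352 with ATRA+NIC, 3022 with ATRA and 3938 in the Control. It was 1.30-fold lower with ATRA than in the Control and was the member with the lowest difference in that comparison.

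By role, 3 of 5 BH3-only genes were at least 2-fold higher with ATRA than in the Control, against 3.83% of genes passing the filter. The count was 0 of 3 for pro-survival genes, of which BCL2 was under the filter, and 0 of 2 for effectors. Of the 3 BH3-only genes, BIK passed the filter through its ATRA value alone. With 100 added to all intensities before log2, its ATRA minus Control difference was 0.93, under 2-fold. The median log2 difference for ATRA minus Control was 1.28 for BH3-only genes, 0.43 for pro-survival genes and −0.24 for effectors. For ATRA+NIC minus ATRA the medians were −0.87 for BH3-only genes, −0.16 for pro-survival genes and −0.11 for effectors. Of all 10 members 8 were higher with ATRA than in the Control by any amount, against 47.7% of all genes, and 8 were lower with ATRA+NIC than with ATRA, against 45.7%. Both counts use the ATRA array, and both include BCL2, which differed by only 0.10 and −0.03. Over all 10 members the median was 0.55 for ATRA minus Control, −0.50 for ATRA+NIC minus ATRA and 0.04 for ATRA+NIC minus Control, while over all 23595 genes it was −0.03, 0.04 and 0.00. Of the 28 member transcripts 7 were at least 2-fold higher with ATRA than in the Control and 0 lower, against 5.33% and 4.12% of all named transcripts. The 7 were all transcripts of BBC3, PMAIP1 and BIK and AY423442 of BCL2L11. With ATRA+NIC against ATRA 6 were lower and 0 higher, against 5.19% and 3.83%. The 6 were all transcripts of BBC3 and PMAIP1 and BC071897 of MCL1. Transcripts of the same gene are not independent, so these counts largely repeat the genes already counted. With ATRA+NIC against Control 0 were higher and 0 lower, against 2.95% and 2.89%.

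**Figure D3:**
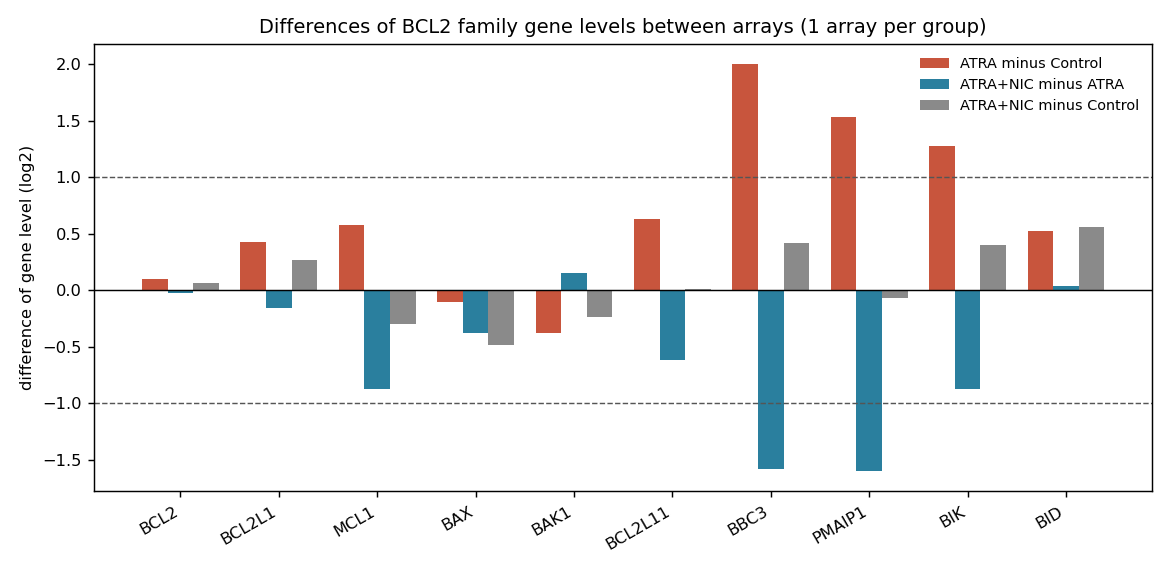
Log2 differences of the gene level for the 10 members, ATRA minus Control, ATRA+NIC minus ATRA and ATRA+NIC minus Control, with dashed lines at 2-fold. BBC3, PMAIP1 and BIK exceed 1.0 for ATRA minus Control, BBC3 and PMAIP1 pass −1.0 for ATRA+NIC minus ATRA, and no bar of ATRA+NIC minus Control reaches either line.

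Genes with the most similar pattern were sought for the 3 members with the widest range, by the distance between their pairs of log2 differences (ATRA minus Control, ATRA+NIC minus ATRA) among 3469 other genes with several transcripts that moved the same way. Nearest to BBC3 were PLAU, which encodes the urokinase plasminogen activator (2.00 and −1.69), the calcium-binding protein gene CALB1 (2.11 and −1.57) and the adaptor gene BLNK (1.93 and −1.47). Nearest to PMAIP1 were BAMBI (1.47 and −1.59), whose product is a decoy receptor of TGF-beta signalling, PNRC1 (1.55 and −1.52) and the urokinase receptor gene PLAUR (1.54 and −1.50). Nearest to BIK were the occludin gene OCLN (1.27 and −0.88), the glutaredoxin gene GLRX (1.28 and −0.81) and the selenoprotein gene SELENOK (1.34 and −0.86). CALB1 and GLRX, as BIK, reached the filter only on the ATRA array, where they were high. CALB1 had log2 levels of 6.46 with ATRA+NIC, 8.02 with ATRA and 5.92 in the Control, so its differences start from a dim value. GLRX had 7.92, 8.74 and 7.46, against a filter of 7.95. These matches rest on 3 arrays.

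The promoter windows of PMAIP1 and BBC3, which were high together on the ATRA array, are shown with that of BAX, which was not. RefSeq sequences of build GRCh38.p14 (250 bases before to 50 after a gene's start) were at hand for 8 of the 10 members, in 13 windows. Capitals mark matches to 5 motifs searched on both strands, which are the cAMP response element core TGACGT bound by ATF and CREB factors, the AP-1 motif TGANTCA, the C/EBP-ATF response element TGATGNAA, the E-box CACGTG and the retinoic acid receptor hexamer AGGTCA. The windows lie at chr18:59899746-59900045 (plus strand), chr19:47232618-47232917 (minus strand) and chr19:48954625-48954924 (plus strand), and each is written 5′ to 3′.
PMAIP1: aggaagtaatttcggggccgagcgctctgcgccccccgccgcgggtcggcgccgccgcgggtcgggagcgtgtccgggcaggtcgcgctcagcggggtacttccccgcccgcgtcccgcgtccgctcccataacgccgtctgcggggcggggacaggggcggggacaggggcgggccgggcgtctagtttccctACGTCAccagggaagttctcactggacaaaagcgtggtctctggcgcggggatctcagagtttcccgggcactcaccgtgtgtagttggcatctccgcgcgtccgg
BBC3: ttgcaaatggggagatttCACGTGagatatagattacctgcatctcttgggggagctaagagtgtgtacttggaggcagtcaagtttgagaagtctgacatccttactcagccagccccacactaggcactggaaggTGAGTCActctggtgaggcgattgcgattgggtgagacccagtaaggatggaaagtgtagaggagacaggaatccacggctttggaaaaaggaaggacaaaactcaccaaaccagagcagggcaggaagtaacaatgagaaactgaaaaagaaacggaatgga
BAX: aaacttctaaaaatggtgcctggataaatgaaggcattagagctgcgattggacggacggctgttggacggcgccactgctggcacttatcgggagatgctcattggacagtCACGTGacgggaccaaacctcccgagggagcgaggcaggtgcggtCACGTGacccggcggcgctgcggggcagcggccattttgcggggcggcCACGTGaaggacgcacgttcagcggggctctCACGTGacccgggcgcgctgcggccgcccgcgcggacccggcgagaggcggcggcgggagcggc
PMAIP1 held 1 cAMP response element core, on the reverse strand at positions −56 to −51 from the start, which 7.98% of all 35116 windows hold. BBC3 held 1 AP-1 motif at −113 to −107, which 7.71% of windows hold, and 1 E-box at −232 to −227. BAX held 4 E-boxes between −138 and −9, and 7.26% of windows hold at least 1. The C/EBP-ATF response element (3.62% of windows) and the retinoic acid receptor hexamer (13.8%) were in none of the 13 member windows. A match describes letters and is no evidence of binding, and motifs outside these windows were not searched.

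Other genes of the pathway were described from 6 lists, with a gene counted by the same 2-fold rule. The lists were chosen with earlier results of these data known, so their counts are descriptive. Of all genes that passed the filter 3.83% were higher and 2.06% lower with ATRA than in the Control. With ATRA+NIC against ATRA 1.35% were higher and 3.74% lower, and against Control 1.03% and 0.971%. Among 15 other BCL2 family genes 11 passed the filter, of which 1 was higher with ATRA than in the Control and 0 lower. This was HRK, the gene of another BH3-only protein, at 1921 with ATRA and 757 in the Control (2.54-fold higher). BCL2L14, under the filter, differed by 0.79 on the log2 scale. With ATRA+NIC against ATRA 1 was higher and 1 lower. The higher was BMF, a BH3-only gene, at 537 with ATRA+NIC and 259 with ATRA (2.07-fold higher, in all 4 transcripts), a log2 difference that was 0.90 and 0.80, under 2-fold, with offsets of 50 and 100. The lower was BNIP3, a mitophagy receptor gene, at 384 with ATRA+NIC and 1169 with ATRA (3.04-fold lower). BNIP3 was also 2.36-fold lower with ATRA+NIC than in the Control, the only gene of this list past 2-fold there. BCL2A1, a pro-survival gene, stayed under the filter and had a level of 31.7 with ATRA+NIC, 84.5 with ATRA and 70.1 in the Control. With transcript values under 50 set to 50 it was 1.56-fold lower with ATRA+NIC than with ATRA, under 2-fold.

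Of 18 apoptosome, caspase and inhibitor genes 17 passed the filter. With ATRA against Control 2 of these were higher and 0 lower, against 3.83% and 2.06% of all genes that passed. BIRC3, the gene of the inhibitor of apoptosis cIAP2, was at 3081 with ATRA and 651 in the Control (4.73-fold higher), and CASP9, the initiator caspase of the apoptosome, at 581 with ATRA and 280.5 in the Control (2.07-fold higher, in 4 of 4 transcripts). CASP9 was under 2-fold with the brightest transcript (0.87 on the log2 scale) and with 50 or 100 added to all intensities before log2 (0.93 and 0.84). XIAP, under the filter, had 94.0 with ATRA and 43.0 in the Control. With transcript values under 50 set to 50 it was 1.64-fold higher, under 2-fold. With ATRA+NIC, BIRC3 was at 1343, 2.29-fold lower than with ATRA and 2.06-fold higher than in the Control, and no other gene of the list passed 2-fold in either comparison. With offsets of 50 and 100 the ATRA+NIC minus Control difference of BIRC3 was 0.99 and 0.94 on the log2 scale, under 2-fold. CASP6 differed by 0.55 on the log2 scale between ATRA+NIC and ATRA. CYCS, the cytochrome c gene, and APAF1 differed by −0.11 and 0.28 between ATRA and Control. The list's median was −0.07 for ATRA minus Control and 0.11 for ATRA+NIC minus ATRA, close to all genes.

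In the death receptor list of 15 genes 13 passed the filter. Of these 1 was higher with ATRA than in the Control, against 3.83% of all genes that passed. The same gene was the only one lower with ATRA+NIC than with ATRA, against 3.74%. TNFRSF10B, the gene of the TRAIL receptor DR5, had 1318 with ATRA+NIC, 4327 with ATRA and 1477 in the Control, 2.93-fold higher with ATRA than in the Control and 3.28-fold lower with ATRA+NIC than with ATRA. TNFRSF10A, the other death-signalling TRAIL receptor, had log2 differences of 0.82 and −0.92, and the decoy receptor gene TNFRSF10D had 0.53 and −0.98. TNFSF10, which encodes TRAIL itself, ran otherwise, at 3049 with ATRA+NIC, 2071 with ATRA and 1188 in the Control. It was 2.57-fold higher with ATRA+NIC than in the Control, in all 3 transcripts, the only gene of the list past 2-fold there. CASP10, under the filter, differed by 0.69 in that comparison.

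Of 16 regulators known to act on BCL2 family genes 14 passed the filter. With ATRA against Control 4 of them were higher and 0 lower, against 3.83% and 2.06% of all genes that passed. These were DDIT3, the gene of CHOP (8.21-fold), ATF3 (7.28-fold), the pseudokinase gene TRIB3 (6.55-fold) and the AP-1 gene JUN (5.18-fold). DDIT3 and TRIB3 were read by 1 transcript each, as were MYC and PLK3 below and HRK and BIRC3 above. Such genes have no scatter between transcripts to set beside their differences. With ATRA+NIC against ATRA 6 were lower, JUN (15.8-fold), ATF3 (at least 9.66-fold, with dim transcript values set to 50), DDIT3 (7.22-fold), TRIB3 (5.92-fold), TP63 (2.70-fold) and MYC (2.29-fold), and the cell cycle gene E2F1 was 2.00-fold higher. Of all genes that passed the filter 3.74% were lower and 1.35% higher in that comparison. E2F1 stood at the threshold and was under it with offsets of 50 and 100 (0.97 and 0.94 on the log2 scale). Over the alternatives JUN ranged from 8.51-fold to 27.3-fold lower, and ATF3 was 6.55-fold lower with an offset of 100. JUN was the only one past 2-fold with ATRA+NIC against Control (3.05-fold lower), where TP63 differed by −0.94. A further list held 14 genes outside the family, chosen as target genes of the transcription factor p53 and here called growth arrest and damage response genes. Of these 12 passed the filter. Among these SESN2, PLK3, CDKN1A, GADD45A and BTG2 were at least 2-fold higher with ATRA than in the Control, against 3.83% of all genes. These 5 were also the ones at least 2-fold lower with ATRA+NIC than with ATRA, against 3.74%. SESN2, which encodes a stress-induced inhibitor of mTORC1 signalling, had 937 with ATRA+NIC, 3826 with ATRA and 1019 in the Control. PLK3, a stress-responsive kinase gene, had 501 with ATRA+NIC, 3128 with ATRA and 883 in the Control. CDKN1A, the gene of the cell cycle inhibitor p21, had log2 differences of 1.71 for ATRA minus Control and −2.13 for ATRA+NIC minus ATRA, GADD45A 1.37 and −2.27, and BTG2 1.15 and −1.09. By any amount 7 of the 14 were higher and 7 lower with ATRA than in the Control, against 47.7% and 52.3% of all genes. The lower ones did not reach 2-fold, with SESN1 at −0.89 and ZMAT3 at −0.72 among them. With ATRA+NIC against Control none of the 14 passed 2-fold, with GADD45A at −0.90 and PLK3 at −0.82 as the greatest differences.

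Among 9 genes that control the turnover of MCL1 or BIM protein, of which 6 passed the filter, none passed 2-fold in any comparison. Of all genes that passed the filter between 0.971% and 3.83% did so per comparison and direction, so none among 6 says little about this list. BAG3, the gene of a chaperone partner that stabilises MCL1, had log2 differences of 0.72 for ATRA minus Control and −0.86 for ATRA+NIC minus ATRA. USP9X, the MCL1 deubiquitinase gene, differed by −0.64 for ATRA minus Control, and TRIM17, a ubiquitin ligase gene, by 0.78 for ATRA+NIC minus ATRA. Of the 3 USP9X transcripts 1 had a value under an intensity of 50. With such values set to 50 USP9X was 1.16-fold lower with ATRA than in the Control, against 1.56-fold without. With ATRA+NIC against Control MARCHF5 differed by −0.42 and BTRC by −0.36.

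**Figure D4:**
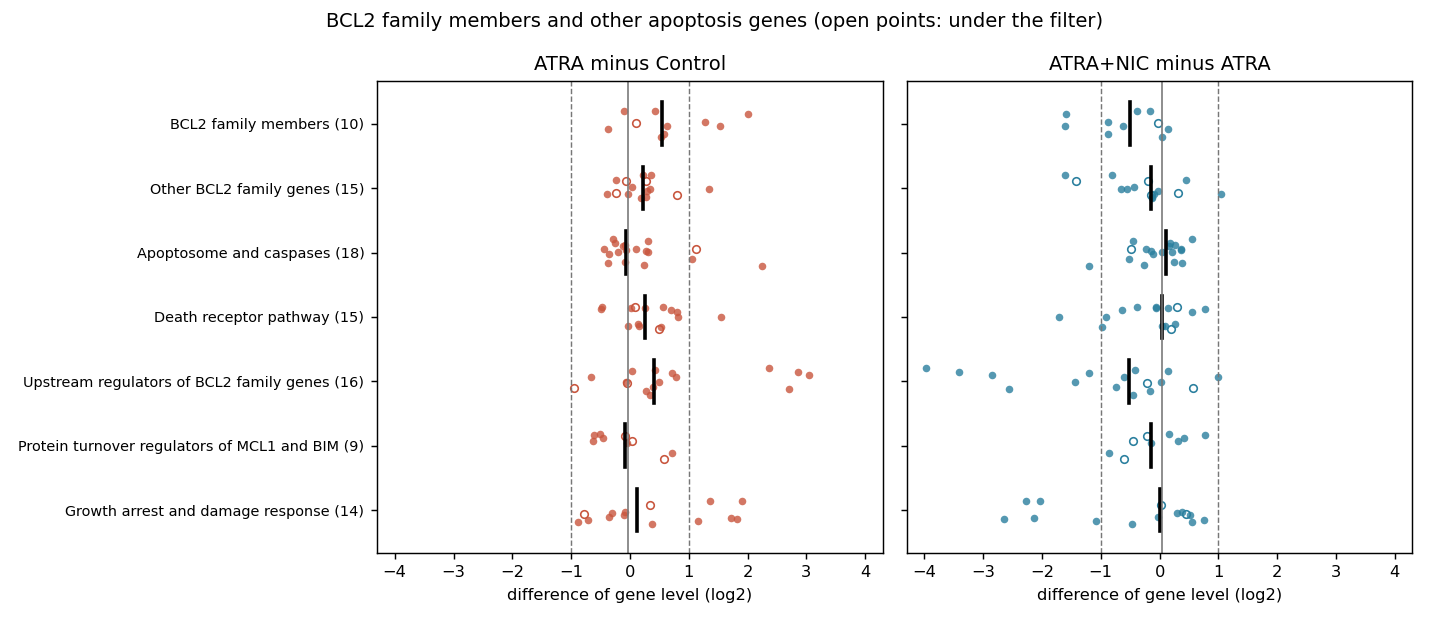
Log2 differences of gene levels for the 10 members and 6 lists of apoptosis genes, for ATRA minus Control and ATRA+NIC minus ATRA. Points are genes (open where under the filter), black bars are list medians, the grey line is the median of all genes and dashed lines mark 2-fold. The members' median lies at 0.55 and −0.50, and the 5 growth arrest and damage response genes past 2-fold stand apart from the rest of their list in both panels.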

How the data were processed

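RNA of 3 HaCaT cultures was measured, with 1 array in each of the ATRA+NIC, ATRA and Control groups. Per the file headers, the deposited values are linear-scale intensities, called by RMA from 3 probes for each of 45033 hg18 transcripts (2 had fewer). No label or header names the RMA software. No scaling was added to the authors' intensities before log2. The authors also deposited a value table, which holds the same intensities for the 31275 transcripts at or above 50 on all arrays and served as an alternative.

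Transcripts with no gene name (2086) were left out. Of 23619 Entrez numbers, 20230 took their symbol from RefSeq (GRCh38.p14), and the others kept the file's name. Members were matched by the file's gene name. Differences, counts and medians were computed with Python 3.11.15, pandas 2.3.3 and numpy 2.4.6. With 1 array per group there is no p-value, and the number of arrays limits the precision. Where a transcript under an intensity of 50 moved a fold past 2, it was recomputed with such values set to 50 and written as "at least".

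The rule for names took all members, list genes past 2-fold that passed the filter, the 2 list genes with the greatest difference per comparison, and the 3 nearest patterns of 3 members. The members and lists were chosen with earlier results of these data known. The alternatives were brightest or median transcript, offsets of 50 and 100, a floor of 50, no filter or a 75th-percentile filter, median centring, the value table and a 1.5-fold threshold.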

Additional observations from a re-analysis of the deposited data

How the results depend on the processing

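The members' median difference stayed between 0.49 and 0.63 for ATRA minus Control and between −0.51 and −0.36 for ATRA+NIC minus ATRA over 10 alternatives, and between 0.04 and 0.28 for ATRA+NIC minus Control. Only the 7 alternatives that change levels could move this median, since the filter and the threshold do not enter it. BBC3 ranged from 3.37-fold to 4.00-fold higher and PMAIP1 from 2.79-fold to 3.17-fold higher for ATRA against Control over the 7 alternatives that change levels. The 3 members higher with ATRA became 2 with an offset of 100, with the 75th-percentile filter and with the value table, where BIK was under 2-fold or under the filter, and 4 at 1.5-fold. The 2 members lower with ATRA+NIC than with ATRA became 3 with the median transcript, where MCL1 was at −1.12, and 5 at 1.5-fold. BCL2L11 differed by 0.98 for ATRA minus Control with the median transcript and by −0.32 for ATRA+NIC minus ATRA with the brightest. BCL2, under the filter, ranged from −0.24 to 0.46 for ATRA minus Control. No called difference changed sign. Counts of all genes, 477 higher and 257 lower for ATRA against Control, were 351 and 130 with an offset of 100, 997 and 759 without a filter, 234 and 74 with the 75th-percentile filter, and 1234 and 1121 at 1.5-fold, and 125 were lower with the value table. For ATRA+NIC against ATRA, 168 higher and 466 lower became 102 and 389 with an offset of 50, 75 and 333 with 100, 728 and 973 without a filter, 48 and 221 with the 75th-percentile filter, 89 and 310 with the value table, and 982 and 1181 at 1.5-fold. For ATRA+NIC against Control, 128 higher and 121 lower became 74 and 69 with an offset of 100, 548 and 491 without a filter, 44 and 48 with the 75th-percentile filter, 72 and 75 with the value table, and 494 and 483 at 1.5-fold. No replicate could be left out, and no paired analysis was possible because each group has 1 array.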
